A study of Mus musculus with 16 samples.

Results

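A set of 93 array probes fell early after induction of E1A in mouse embryonic stem cells and rose again, in whole or in part, by 24 h. A probe belonged to the set when its mean log2 intensity was at least 0.4 lower at 6 h than at 0 h and at least 0.4 higher at 24 h than at 6 h. The 93 probes were found among 13974 that were detected on at least 2 of 16 arrays, out of 25697 on the array. Of the 93, 81 carry a gene symbol, which names 73 genes, and 12 carry none. The named genes with the deepest falls were Chac1, Tatdn2, Klf4, Emd, Gadd45g, Nupr1, Srxn1, Tfap2c and Slc1a4. Of these, Tatdn2, Klf4, Emd and Srxn1 were still at least 0.4 below 0 h at 24 h. Atf4, Trib3 and Ddit3 were in the set as well.

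Several genes of the set belong to the integrated stress response. In that pathway, kinases that sense amino acid shortage, unfolded protein or other stress slow general translation, while translation of the mRNA for the transcription factor ATF4 increases. ATF4 then raises genes for amino acid uptake and synthesis and genes such as Chac1, Trib3 and Ddit3, which encodes the transcription factor CHOP. Embryonic stem cells also depend on transcription factors such as KLF4, a target of leukaemia inhibitory factor signalling that supports self-renewal.

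Total RNA from embryonic stem cells of a mixed C57BL/6, C3H and CD1 background was measured on single-colour Illumina bead arrays, 1 array per sample and 2 arrays per group. The 8 groups were harvested 0, 3, 6, 9, 12, 24 and 48 h after E1A was induced, and at 48 h in a cherry control. No control was harvested at 3 to 24 h, so over that span an effect of E1A cannot be told apart from one of time or handling. E1A is an adenoviral protein that binds retinoblastoma family proteins and histone acetyltransferases. The labels list E1A induction as the treatment of every group, the control included, without saying if the control cells held the E1A construct. Neither the promoter of the E1A construct, the number of cell clones nor whether the 2 arrays of a group came from separate cultures is given, so the tests measure only the spread between these arrays, which may be technical.

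The labelled cell type was checked on marker genes. All 10 stem cell markers, among them Pou5f1, Nanog and Sox2, had a probe detected on all 16 arrays. Of 7 fibroblast markers, only Thy1 was detected throughout, and Col1a2, Col3a1, Postn and Lum were detected on no array. The summed linear level of the stem cell markers ranged from 65380 to 70520 at 0 h and from 54860 to 56110 at 6 h. It ranged from 50840 to 52110 at 24 h, from 50730 to 51490 at 48 h and from 70150 to 72540 in the control. This sum, too, was lower at 6 h, but it did not come back by 24 h. The brightest probes in it, from Dppa5a, had mean log2 levels of 14.36 and 14.23 at 0 h. Genes of the list parted by 48 h, so the sum does not stand for each of them. From 0 to 48 h Nanog went from 11.67 to 12.09 and Esrrb from 11.9 to 12.04. Over the same time Utf1 went from 11.03 to 8.54, and the Pou5f1 probes from 12.42 to 10.88 and from 12.84 to 11.14. The summed level of the fibroblast markers lay between 234.1 and 277 on all arrays. Of 8 markers of differentiating cells, 7 had a probe, 3 were detected throughout and Pax6 and Fgf5 on no array. Up to 24 h their summed level was highest at 6 h, where the set is lowest: it ranged from 1259 to 1310 at 0 h, from 1260 to 1274 at 3 h, from 1568 to 1586 at 6 h, from 1333 to 1386 at 9 h, from 1347 to 1349 at 12 h and from 1211 to 1231 at 24 h, and then from 1533 to 1624 at 48 h and from 1552 to 1568 in the control. Its brightest probe over the first 24 h, that of Otx2, had a mean log2 level of 9.44 at 0 h, 9.92 at 6 h and 9.26 at 24 h. Gata6, the next brightest, did not rise at 6 h (8.28, 8.18 and 7.96), so the sum does not stand for every gene of the list. At 48 h Otx2 had 9.21 and Gata6 9.02, and in the control 8.90 and 9.56. Whether cell composition bears on the course of the set was not tested, and in bulk RNA fewer cells of a type cannot be told apart from less RNA per cell. Each array detected 47.2% to 49.2% of all probes, and arrays of 1 group correlated at 0.995 to 0.997.

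Promoter sequence is shown for members that hold a match to the core of the composite element bound by ATF4 with C/EBP family partners. In a window of 250 bases before to 50 bases after each annotated start (RefSeq, GRCm38.p6), TGATGNAA was searched on both strands, with N standing for any base. It was found in 6 of the 79 windows of 61 member genes (7.59%) and in 1304 of all 32851 windows (3.97%). The 6 genes were Chac1, Trib3, Nupr1, Jdp2, Slc1a4 and Gadd45g, and the stretches around the match follow, read 5′ to 3′ on the strand of the gene, with the match in capitals.

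Chac1: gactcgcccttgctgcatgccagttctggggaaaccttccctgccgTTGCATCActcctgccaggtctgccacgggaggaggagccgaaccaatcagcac
Trib3: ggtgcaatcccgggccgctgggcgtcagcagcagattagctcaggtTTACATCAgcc
Nupr1: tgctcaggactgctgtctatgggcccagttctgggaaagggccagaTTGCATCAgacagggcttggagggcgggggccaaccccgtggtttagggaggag
Jdp2: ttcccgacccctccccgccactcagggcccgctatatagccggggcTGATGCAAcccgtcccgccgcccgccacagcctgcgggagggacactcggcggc
Slc1a4: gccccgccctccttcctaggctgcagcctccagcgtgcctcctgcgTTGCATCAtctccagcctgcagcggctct
Gadd45g: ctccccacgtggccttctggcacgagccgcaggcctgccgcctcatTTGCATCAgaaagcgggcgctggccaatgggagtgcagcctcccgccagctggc

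The stretches lie at chr2:119351003-119351102 (plus strand, Chac1), chr2:152344036-152344092 (minus strand, Trib3), chr7:126625527-126625626 (minus strand, Nupr1), chr12:85599337-85599436 (plus strand, Jdp2), chr11:20332689-20332763 (minus strand, Slc1a4) and chr13:51846528-51846627 (plus strand, Gadd45g). The match begins 193 bases before the start of Chac1, 110 before that of Nupr1, 101 before that of Gadd45g, 33 before that of Jdp2 and 4 before that of Slc1a4. In Trib3 it begins 14 bases after the start. Chac1, Nupr1, Gadd45g and Slc1a4 carry the same 8 letters, Jdp2 carries their reverse complement, and Trib3 differs at the free base. A palindromic cAMP response element, TGACGTCA, was in 0 of the 79 member windows and in 1.79% of all windows, and a CCAAT box was in 41.8% and 37.4%. A TATA box, TATAAA, was in 5.06% of member windows and 13.6% of all windows, and an E2F site, TTTGGCGC, in 1.27% and 0.514%. The motifs were chosen after the members were known, and a match is a run of letters and not evidence of binding.

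The fall was under way at 3 h. The median log2 difference of the members from 0 h was -0.30 after 3 h, reached -0.55 after 6 h, and returned through -0.44 after 9 h and -0.30 after 12 h to 0.01 after 24 h. At 6 h the median on the 2 arrays was -0.584 and -0.55, and at 24 h it was 0.015 and -0.02. The members were chosen by the means of 0, 6 and 24 h, so the differences among these are descriptions (at 6 h, 4.21% of all tested probes were at least 0.4 below 0 h), and so is every other value given against 0 h. The median over all tested probes stayed between -0.033 and 0.

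**Figure D1:**
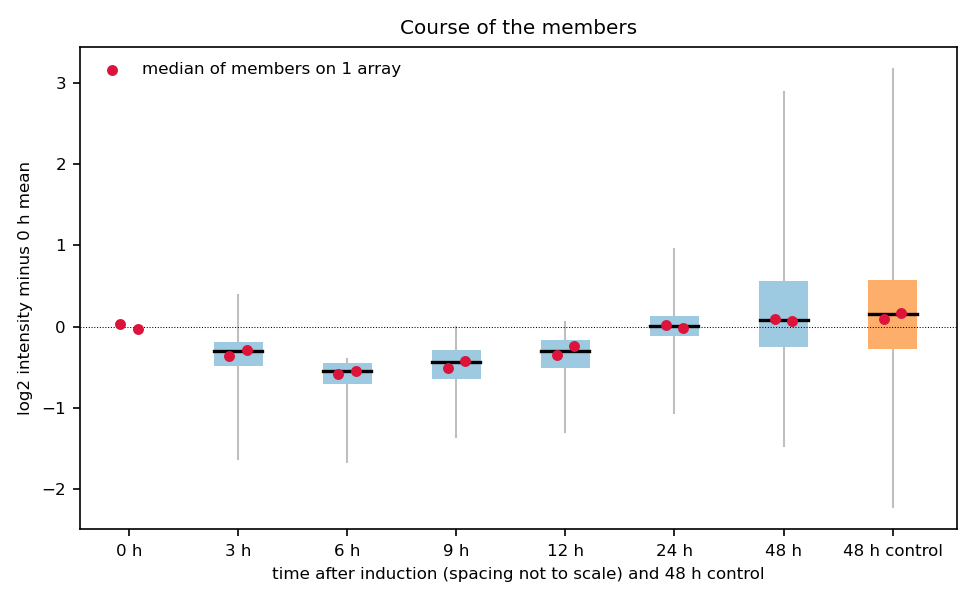
Difference of the 93 members from their 0 h mean (log2 intensity, vertical axis) in each group (horizontal axis, spacing not to scale). Black lines are medians over members, boxes the quartiles, thin lines the full range and red points the median on each array; the median is lowest at 6 h (-0.55), and the range widens to -1.47 to 2.89 at 48 h and -2.22 to 3.17 in the control.

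By 3 h the median member had already covered 57% of its fall to 6 h, with quartiles of 36.4% and 75.5%. At 3 h, 76 of the 93 members had both arrays below both 0 h arrays, against 22.6% of all tested probes. A group of 8 members had completed the whole 6 h fall or more by 3 h, whereas 16 had covered under 25% of it and 6 stood above 0 h. The early ones included Slc1a4, Slc6a9, Jdp2 and Cryl1. The late ones included Tatdn2, Emd and Cdkn2a.

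The lowest of the group means from 3 to 12 h lay at 6 h for 63 members, at 9 h for 20, at 3 h for 7 and at 12 h for 3. The rule favours 6 h. At 9 h the median member had regained 25.7% of its fall and at 12 h 43.2%, and at 24 h it had regained 101% (quartiles 82.8% and 130%). At 12 h, 7 members were at or above their 0 h mean, and at 24 h 48 were. At 24 h, 6 members were still at least 0.4 below 0 h (Tatdn2, Emd, both Klf4 probes, Srxn1 and a probe with no gene name), and 6 were at least 0.4 above it (both Ddit3 probes, both Gadd45g probes, Gabarap and Mef2b). Among all tested probes, 10.3% and 11% were.

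**Figure D2:**
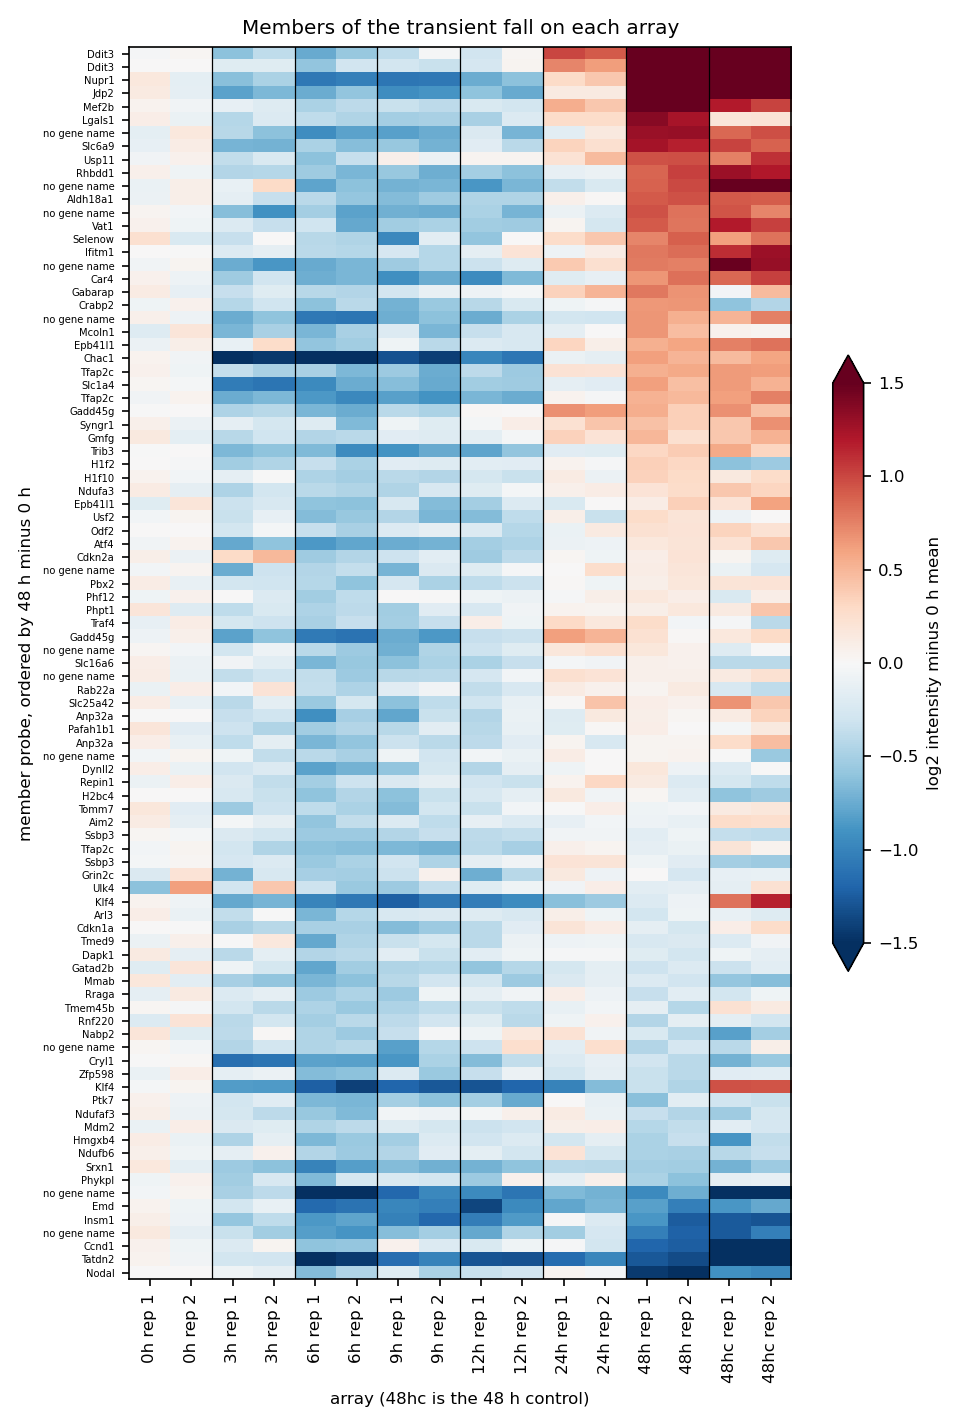
Log2 intensity minus the 0 h mean for each of the 93 member probes (rows, ordered by the difference of 48 h from 0 h) on each of the 16 arrays (columns, replicates side by side). Blue is below and red above 0 h, with colours saturating at 1.5; all rows are blue at 6 h, as the rule demands, and at 48 h they range from Ddit3 (2.89) to Nodal (-1.47).

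The stages of this course that share no array with 0, 6 and 24 h were tested with limma over all 13974 probes (Benjamini-Hochberg adjusted p under 0.05). Between 3 and 9 h, 12 members fell and 3 rose, where 2.52% of all tested probes fell and 3.4% rose (5.92% in all). The median member was 0.14 lower at 9 h than at 3 h. These counts rest on few arrays: leaving out 3 h replicate 2 left 4 calls in place of 15, 9 h replicate 1 left 5, 3 h replicate 1 or 9 h replicate 2 left 7, and either array of 0, 6 or 48 h left 9.

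Of the named members called lower at 9 h than at 3 h, Tatdn2 and Emd kept the call in every such fit. Tatdn2, a member of the TatD nuclease family, read 8.54 and 8.44 at 0 h, 8.22 and 8.20 at 3 h, 6.99 and 7.05 at 6 h, 7.35 and 7.49 at 9 h and 7.20 and 7.18 at 12 h. It read 7.34 and 7.51 at 24 h, 7.22 and 7.15 at 48 h, and 6.92 and 6.92 in the control. All arrays from 6 h on lie below all arrays of 0 and 3 h, and the recovery at 24 h was partial. From 3 to 9 h it fell by 0.79 on the log2 scale, and from 3 to 12 h by 1.02.

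Emd, which encodes the inner nuclear membrane protein emerin, read 9.03 and 8.92 at 0 h, 8.70 and 8.87 at 3 h, 7.81 and 7.87 at 6 h and 8.0 and 7.96 at 9 h. It then read 7.60 and 8.02 at 12 h, 8.20 and 8.29 at 24 h, 8.17 and 7.96 at 48 h and 8.11 and 8.21 in the control. It, too, stayed below the 0 and 3 h arrays to the end. It fell by 0.80 from 3 to 9 h and by 0.97 from 3 to 12 h. A further Emd probe outside the set was 0.99 lower at 6 h than at 0 h and missed the step to 24 h by little (0.37). Cdkn2a encodes an inhibitor of cyclin-dependent kinases and the ARF protein. Its member probe was above 0 h at 3 h (0.39) and below it at 6 h (-0.49), and fell by 0.85 from 3 to 12 h. A further Cdkn2a probe differed from 0 h by -0.45 at 6 h and regained only 0.13 by 24 h. The probes of Cdkn2a thus disagree on the return.

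Between 9 and 12 h limma called 0 probes of either kind, and 21 members passed an unadjusted p under 0.05, against 8.22% of all tested probes. Of the 93 members, 76 were higher at 12 h than at 9 h and 17 lower, with a median of 0.13. Of all tested probes 50% were lower, with a median of 0. Between 3 and 12 h, 8 members rose and 8 fell, where 4.84% and 3.84% of all tested probes did (8.68% in all). Among those that rose, Slc1a4 (0.55) and Chac1 (0.60) kept their call with any 1 array left out. The count of 16 fell to 10 without either 3 h array and to 9 without 12 h replicate 1.

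In a stress response and amino acid group picked from the members, all probes were called higher late than at 12 h. The group holds 9 genes with 10 probes, put together after their names were seen: Atf4, Ddit3, Trib3, Chac1, Nupr1, Jdp2, Slc1a4, Slc6a9 and Aldh18a1. For Jdp2, Slc6a9 and Aldh18a1 the values had been seen as well. The member Rraga, a gene of amino acid sensing, was placed in another group. The counts therefore describe the genes picked and are no test of the pathway. The 10 probes fell by 0.44 to 1.67 at 6 h. All 10 probes were higher at 48 h than at 12 h (by 0.66 to 3.02) and higher in the 48 h control than at 12 h (by 0.80 to 3.30). These comparisons share the 12 h arrays. Over all tested probes, 22.3% were higher at 48 h than at 12 h, and 23.3% of the control's were. Each of these calls held under every alternative setting and with any 1 array left out.

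Atf4, the transcription factor at the centre of the pathway, read 10.43 and 10.53 at 0 h, 9.71 and 9.88 at 3 h, 9.62 and 9.70 at 6 h, 9.74 and 9.77 at 9 h and 9.97 and 10.02 at 12 h. It read 10.39 and 10.40 at 24 h, 10.64 and 10.67 at 48 h, and 10.70 and 10.89 in the control. The arrays from 3 to 12 h lie below those of every other group. Its level at 6 h was 1.77-fold below that at 0 h. It rose 1.58-fold from 12 to 48 h (log2 0.66, SE 0.09, limma adjusted p = 4.99e-05) and was 1.74-fold higher in the control than at 12 h (adjusted p = 7.15e-06).

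Chac1, whose enzyme degrades glutathione, had the deepest fall of any named member. It read 10.03 and 9.93 at 0 h, 8.18 and 8.53 at 3 h, 8.33 and 8.28 at 6 h, 8.67 and 8.57 at 9 h and 9.00 and 8.90 at 12 h. It then read 9.88 and 9.84 at 24 h, 10.60 and 10.49 at 48 h, and 10.46 and 10.57 in the control. Nearly the whole fall was present at 3 h (-1.63, against -1.67 at 6 h), which puts the 6 h level 3.19-fold below 0 h. It rose 3.02-fold from 12 to 48 h (log2 1.59, SE 0.11, limma adjusted p = 5.68e-08), and the control was 2.96-fold above 12 h (adjusted p = 4.81e-08). The 48 h and control arrays overlap, with a difference of 0.03.

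Trib3, a pseudokinase that restrains ATF4 signalling, read 7.0 and 7.02 at 0 h, between 6.07 and 6.42 on the 8 arrays from 3 to 12 h, 6.84 and 6.83 at 24 h, 7.32 and 7.39 at 48 h, and 7.58 and 7.33 in the control. The early arrays form a flat floor that no later array touches. It rose 2.05-fold from 12 to 48 h (log2 1.03, SE 0.12, limma adjusted p = 5.57e-06) and was 2.19-fold higher in the control than at 12 h.

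Ddit3 showed the widest overshoot. On its first probe it read 7.12 and 7.17 at 0 h, 6.52 and 6.76 at 3 h, 6.38 and 6.57 at 6 h, 6.76 and 7.12 at 9 h and 6.85 and 7.17 at 12 h. It then read 8.14 and 8.06 at 24 h, 9.99 and 10.07 at 48 h, and 10.20 and 10.43 in the control. From 24 h on, all arrays lie above all earlier ones. From 12 to 48 h it rose 8.08-fold (log2 3.02, SE 0.14, limma adjusted p = 1.65e-09), and the control was 9.85-fold above 12 h. The other Ddit3 probe gave 5.75-fold and 6.58-fold.

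Nupr1, a small stress-induced nuclear protein, read 9.98 and 9.67 at 0 h, 9.19 and 9.35 at 3 h, 8.75 and 8.79 at 6 h, 8.74 and 8.75 at 9 h and 9.08 and 9.21 at 12 h. It read 10.11 and 10.23 at 24 h, 11.93 and 11.91 at 48 h, and 12.35 and 12.47 in the control. It rose 6.87-fold from 12 to 48 h (log2 2.78, limma adjusted p = 4.04e-10) and was 9.64-fold higher in the control than at 12 h. Of the 10 probes it alone was called between the groups of matched harvest time, with a level 0.49 lower at 48 h (SE 0.11, adjusted p = 0.00571). That call was lost without control replicate 2 (adjusted p = 0.056).

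Jdp2, a basic leucine zipper protein that represses AP-1 targets, was dim early. It read 5.98 and 5.71 at 0 h, between 4.91 and 5.25 on the 8 arrays from 3 to 12 h, 5.97 and 5.98 at 24 h, 7.67 and 7.61 at 48 h, and 7.81 and 7.98 in the control. At 9 h it was not well above background on either array, so its 0 h level was at least 1.67-fold above 9 h, with the dim side set to the lowest detected signal. It rose 5.57-fold from 12 to 48 h (log2 2.48, limma adjusted p = 1.14e-09), and the control was 6.64-fold above 12 h.

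The amino acid genes of the group also dipped and came back. Slc1a4, a transporter of neutral amino acids, read 7.62 and 7.56 at 0 h, 6.54 and 6.49 at 3 h, 6.64 and 6.84 at 6 h, 6.95 and 6.83 at 9 h and 7.07 and 7.06 at 12 h. It read 7.46 and 7.42 at 24 h, 8.20 and 8.04 at 48 h, and 8.23 and 8.11 in the control. Its lowest arrays were those of 3 h, and it had risen by 12 h (0.55 above 3 h, limma adjusted p = 0.00261). It rose 2.08-fold from 12 to 48 h. The glycine transporter gene Slc6a9 rose 2.82-fold and Aldh18a1, an enzyme of proline synthesis, rose 2.61-fold over that interval, and the control was 2.35-fold and 2.57-fold above 12 h.

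**Figure D3:**
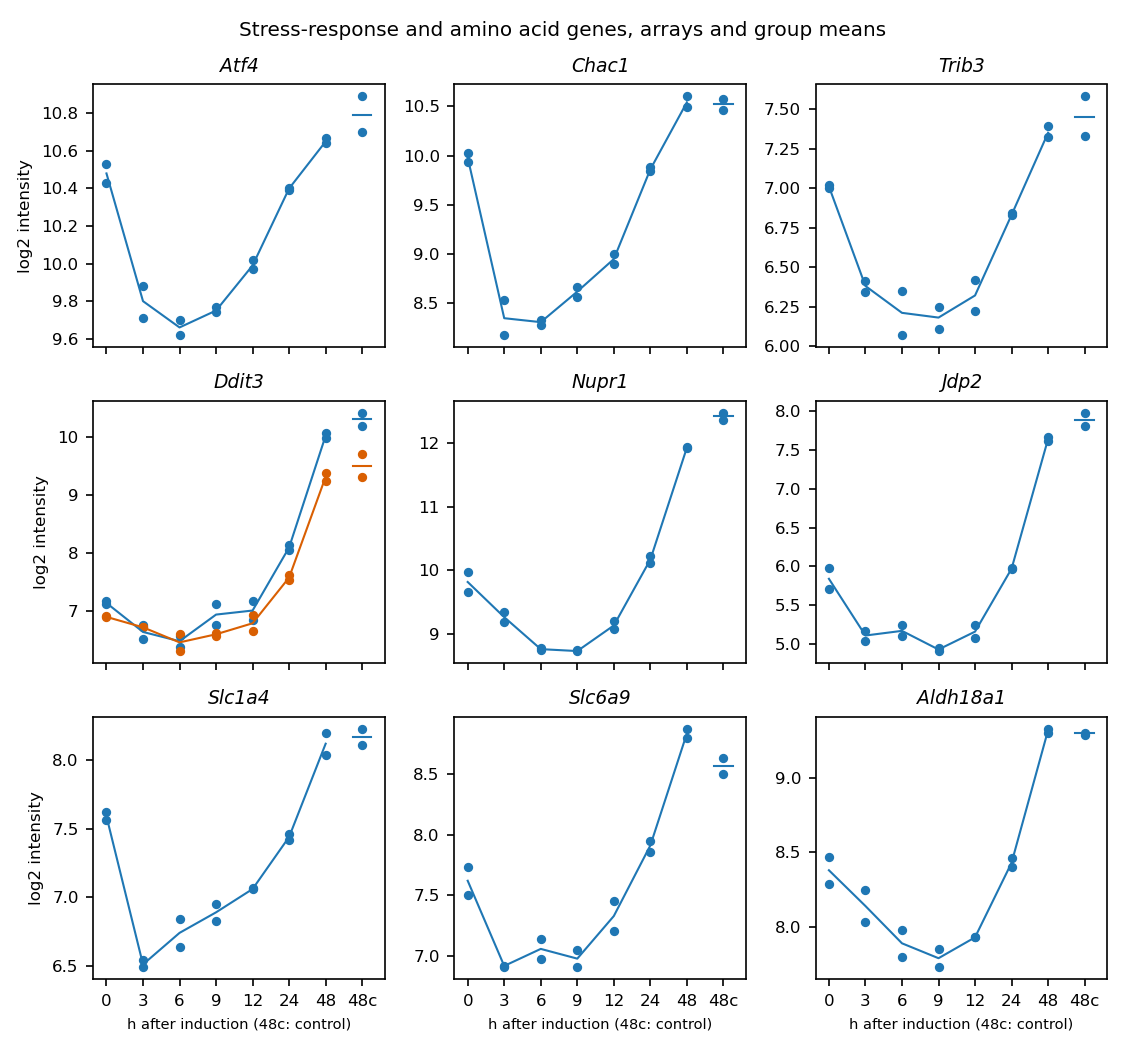
Log2 intensity (vertical axis, a separate scale per panel) of the 9 stress response and amino acid genes on every array against hours after induction (horizontal axis, spacing not to scale; 48c is the 48 h control). Points are arrays and lines or dashes group means, with a second colour for the other Ddit3 probe; each gene dips between 3 and 12 h and ends above 12 h both at 48 h and in the control.

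Other genes of the pathway were read from a list of 17 genes, of which 16 were tested with 24 probes, and 5 of these probes, from 4 genes, are members. The other 19 probes, from 12 genes, shared the early dip only in part. At 6 h, 15 of the 19 were below 0 h and 3 of them at least 0.4 below. Over all tested probes the median difference was -0.003, and 4.21% were at least 0.4 below. The 3 probes were that of Mthfd2 (-0.56), an enzyme of mitochondrial folate metabolism, and both of Sesn2 (-0.49 and -0.43), a stress-induced inhibitor of the mTOR growth kinase complex. Ddit4, another inhibitor of that complex, stood 0.47 above 0 h at 6 h.

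Later, 12 of the 19 probes were called higher and 1 lower at 48 h than at 12 h, where 22.3% and 23.6% of all tested probes were. Their median was 0.72, against -0.02 over all tested probes. In the control 13 were higher and 1 lower, where 23.3% and 25.3% were, with a median of 0.61. The lipoprotein receptor gene Vldlr rose on its 3 probes by 2.39, 2.50 and 2.63 from 12 to 48 h. Its probes differed from 0 h by -0.37, -0.37 and -0.51 at 3 h and by -0.02, -0.23 and -0.14 at 6 h. Between 3 and 12 h the first and the third probe rose by 0.53 and 0.59 (limma adjusted p = 0.0314 and 0.0025). Asns, the asparagine synthetase gene, rose by 0.87 to 1.16 on its 3 probes. Both Sesn2 probes stayed within 0.10 of their 12 h level at 48 h, and a probe of Slc7a3, a transporter of basic amino acids, fell by 0.63. Between 48 h and the control, 2 of the 19 were higher and 4 lower, where 8.85% and 9.05% of all tested probes were.

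Genes of pluripotency and development, all lower at 6 h as the rule demands, parted later. This group, formed after the names were seen, holds 8 probes of Klf4, Tfap2c, Nodal, Insm1 and Crabp2. From 12 to 48 h, 6 of the 8 rose and 1 fell, where 22.3% and 23.6% of all tested probes did. Against the control 1 was higher and 3 were lower at 48 h, where 8.85% and 9.05% were.

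Klf4 fell early and stood above 0 h in the control but not at 48 h. Its first probe read 7.02 and 7.09 at 0 h, 6.21 and 6.20 at 3 h, 5.83 and 5.65 at 6 h, 5.86 and 5.78 at 9 h and 5.76 and 5.86 at 12 h. It read 6.05 and 6.40 at 24 h, 6.72 and 6.60 at 48 h, and 8.0 and 7.99 in the control. The 48 h arrays stay below both 0 h arrays, and the control arrays lie above all others. From 12 to 48 h it rose 1.81-fold (limma adjusted p = 2.63e-05), while the control was 4.56-fold above 12 h (adjusted p = 2.88e-09). The control exceeded 48 h by 2.53-fold (log2 -1.34, SE 0.11, adjusted p = 1.55e-06). For the other member probe the control exceeded 48 h by 2.18-fold. A further Klf4 probe, which missed the step to 24 h (0.37), differed by -1.57 on the log2 scale.

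Klf4 lies on a pluripotency list of 37 tested probes, and its 2 probes are the only members there. Between 48 h and the control, 25 of the 37 were lower at 48 h and 2 higher, with a median of -0.57, against 9.05% lower and 8.85% higher among all tested probes. The summed level of the 10 stem cell markers given above, Klf4 among them, differs between these groups in the same direction, and whether this bears on Klf4 was not tested.

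Tfap2c, a transcription factor of trophoblast and germ cell development, was in the set with 3 probes. The probe with the deepest fall read 10.32 and 10.42 at 0 h, between 9.40 and 9.70 on the 8 arrays from 3 to 12 h, 10.42 and 10.35 at 24 h, 10.89 and 10.86 at 48 h, and 10.99 and 11.12 in the control. It rose 2.33-fold from 12 to 48 h (limma adjusted p = 8.17e-08), and the others rose 2.02-fold and 1.26-fold. The smallest of these calls was lost without 12 h replicate 2 or 48 h replicate 2 (adjusted p = 0.0628 and 0.0546). None of the 3 was called different between 48 h and the control (-0.24 to -0.09).

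Crabp2, a retinoic acid binding protein, took the opposite side to Klf4. It read 7.07 and 7.19 at 0 h, 6.70 and 6.83 at 3 h, 6.51 and 6.73 at 6 h, 6.42 and 6.57 at 9 h and 6.71 and 6.90 at 12 h. It read 7.06 and 7.11 at 24 h, 7.78 and 7.79 at 48 h, and 6.53 and 6.69 in the control. Only the 48 h arrays stand above both 0 h arrays, and the control arrays sit in the range of the early trough. It rose 1.98-fold from 12 to 48 h (adjusted p = 4.46e-06) and at 48 h exceeded the control by 2.26-fold (log2 1.18, SE 0.11, limma adjusted p = 3.04e-06).

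Nodal, a signalling ligand of the TGF-beta family, regained its 0 h level at 24 h and fell again. It read 8.50 and 8.51 at 0 h, 8.44 and 8.37 at 3 h, 7.85 and 8.05 at 6 h, 8.32 and 8.02 at 9 h and 8.17 and 8.21 at 12 h. It read 8.54 and 8.47 at 24 h, 7.07 and 7.01 at 48 h, and 7.59 and 7.53 in the control. The 48 h arrays are the lowest of all, followed by those of the control. From 12 to 48 h it fell by 1.15 (limma adjusted p = 7.7e-07), and it was 0.52 lower at 48 h than in the control (adjusted p = 0.00294). Insm1, a zinc finger factor of neuroendocrine cells, recovered to 7.03 and 6.85 at 24 h from 6.19 and 6.26 at 6 h, and read 6.18 and 5.80 at 48 h and 5.79 and 5.76 in the control.

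**Figure D4:**
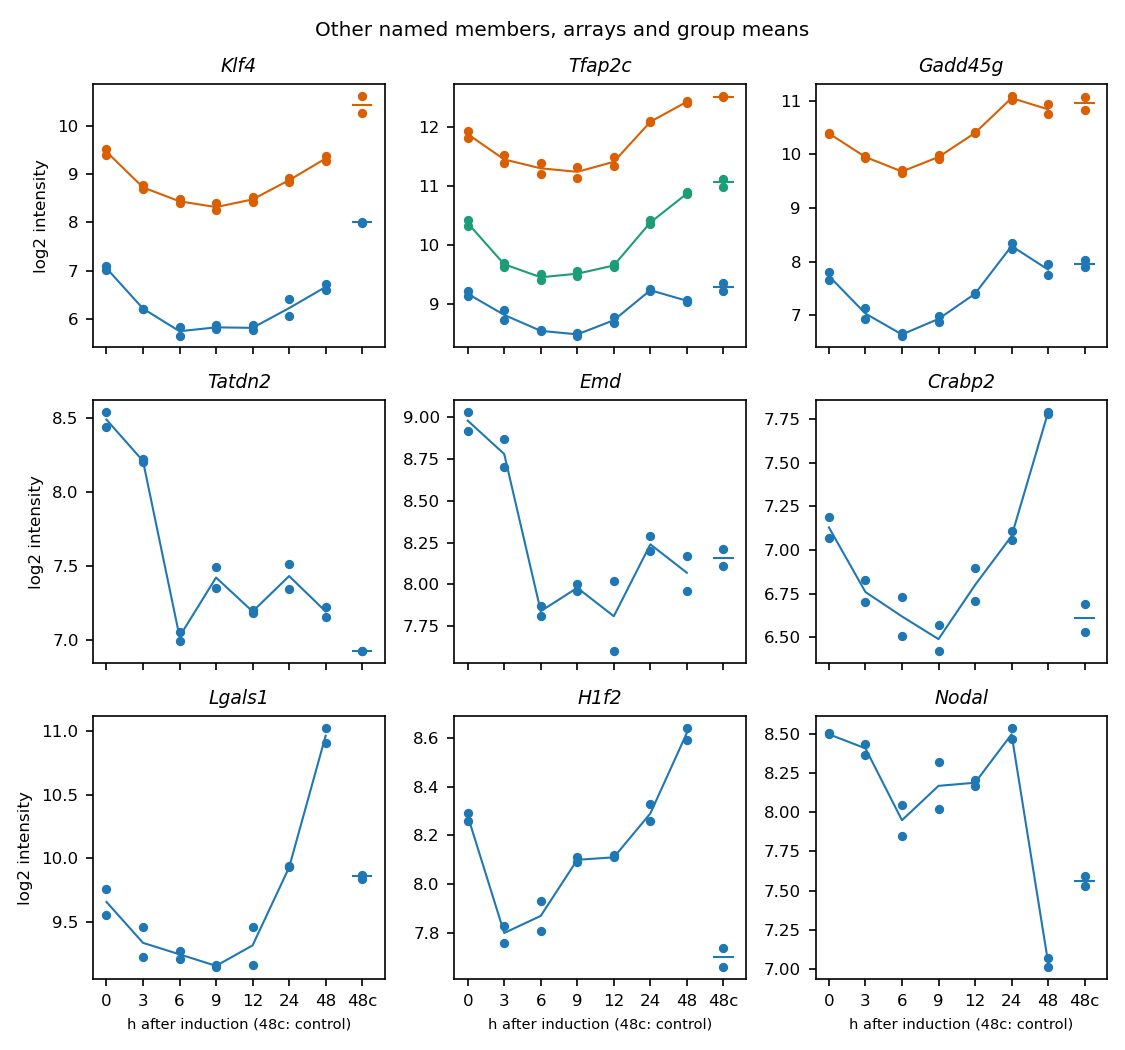
Log2 intensity (vertical axis, a separate scale per panel) of 9 further member genes on every array against hours after induction (horizontal axis, spacing not to scale; 48c is the 48 h control). Points are arrays, lines or dashes are group means, and colours in a panel are different member probes of 1 gene; Klf4 is highest in the control, Crabp2, Lgals1 and H1f2 are highest at 48 h, and Tatdn2 and Emd stay below 0 h.

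Growth arrest and cell cycle genes gave 6 probes. Gadd45g, a growth arrest and DNA damage inducible gene, fell by 1.09 and 0.71 on its probes at 6 h, stood 0.56 and 0.66 above 0 h at 24 h, and rose by 0.45 and 0.44 from 12 to 48 h. Cdkn1a, the p53 target that encodes the kinase inhibitor p21, read 7.42 and 7.40 at 0 h, 6.92 and 6.92 at 6 h, 7.60 and 7.52 at 24 h, 7.27 and 7.15 at 48 h, and 7.51 and 7.68 in the control. Mdm2, the ubiquitin ligase that restrains p53, read 11.55 and 11.75 at 0 h, 11.20 and 11.26 at 6 h and 11.74 and 11.75 at 24 h. At 24 h Cdkn1a thus stood above its 0 h range and Mdm2 within it, and in none of the 6 comparisons was Mdm2 called. Further Mdm2 probes outside the set differed from 0 h by -0.18 and -0.37 at 6 h and by -0.12 and 0.08 at 24 h. Cdkn1a was 0.38 lower at 48 h than in the control (limma adjusted p = 0.0167). That call was lost without 48 h replicate 2 or control replicate 2 (log2 -0.32 and -0.30). Brighter Cdkn1a probes outside the set differed there by -0.23 and -0.28 and were not called (limma adjusted p = 0.125 and 0.0632). These probes differed from 0 h by -0.38 and -0.30 at 6 h and by 0.58 and 0.61 at 24 h. Of the 24 tested probes on the p53 target list, 0 were called higher and 4 lower at 48 h than at 12 h, where 22.3% and 23.6% of all tested probes were. In the control 4 were higher and 1 lower than at 12 h, where 23.3% and 25.3% were, and between 48 h and the control 0 were higher and 4 lower, where 8.85% and 9.05% were.

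Ccnd1, which encodes cyclin D, was a member through 1 probe that its other probes contradict. The member probe was 0.59 lower at 6 h than at 0 h, whereas 2 brighter Ccnd1 probes were 0.45 and 0.40 higher. All 3 were lower at 48 h than at 12 h (by 1.07, 0.92 and 1.01 on the log2 scale) and higher at 48 h than in the control (by 1.01, 0.89 and 0.81), so its probes disagree on the early dip and run the same way late. Over the set, 31 member genes had 45 further tested probes, of which 34 were lower at 6 h than at 0 h and 7 by at least 0.4. Among all tested probes the median difference at 6 h was -0.003, and 4.21% were at least 0.4 lower.

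Srxn1, the sulfiredoxin gene that restores oxidised peroxiredoxins, was a member of the oxidative stress list. It read 8.39 and 8.08 at 0 h, 7.23 and 7.40 at 6 h, 7.82 and 7.81 at 24 h, 7.72 and 7.71 at 48 h, and 7.52 and 7.69 in the control. On this probe the recovery was partial, and no tested comparison called it. The other 2 Srxn1 probes were 0.53 and 0.69 lower at 6 h than at 0 h and did not recover (24 h minus 6 h 0.00 and 0.01). The second of them was lower at 48 h than at 12 h by 0.37 on the log2 scale (limma adjusted p = 0.00433) and in the control by 0.51 (adjusted p = 0.000363), so the probes of Srxn1 disagree on the return. Hmox1, the haem oxygenase gene, lay just outside the set: its difference was -1.045 at 6 h and regained 0.395 by 24 h. Other probes near the limits were Pafah1b1 (0.4) and Aim2 (0.401) just inside and Plekhj1 (0.398) just outside on the step to 24 h, and Ifitm1 (-0.410) just inside and Sec61b (-0.399) just outside on the step to 6 h.

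The late course of the whole set was wide. At 48 h, 29 members were at least 0.4 above 0 h, 52 were within 0.4 and 12 were below, while in the control 31, 45 and 17 were. Among all tested probes, 20.1% were at least 0.4 above and 21.2% at least 0.4 below 0 h at 48 h, and 20.2% and 21.2% in the control. The medians of the members were 0.08 and 0.15, over members that went both ways, and 8 members at 48 h and 10 in the control stood at least 1 above 0 h.

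Against 12 h, which the rule did not use, 49 members were higher and 4 lower at 48 h, where 22.3% and 23.6% of all tested probes were (45.9% in all). In the control 50 were higher and 11 lower, where 23.3% and 25.3% were (48.5% in all). The median member was 0.35 above 12 h at 48 h and 0.42 above it in the control. Outside the gene groups above, the transcription factor gene Mef2b rose 3.49-fold, the rhomboid protease gene Rhbdd1 2.85-fold, the carbonic anhydrase gene Car4 2.91-fold and Vat1 2.61-fold from 12 to 48 h. In the control these were 2.55-fold, 3.48-fold, 3.34-fold and 3.12-fold above 12 h. A 4-gene list of this kind was picked for size and says nothing about function.

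Between 48 h and the control, the only comparison at a matched harvest time, 14 members were higher at 48 h and 10 lower, where 8.85% and 9.05% of all tested probes were (17.9% in all). The median difference was -0.06. Without either 48 h array 15 were called in place of 24. The named members highest at 48 h against the control were Crabp2, Lgals1, Ccnd1 and H1f2.

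Lgals1, which encodes the sugar-binding protein galectin, read 9.76 and 9.56 at 0 h, between 9.15 and 9.46 on the 8 arrays from 3 to 12 h, 9.94 and 9.93 at 24 h, 11.02 and 10.90 at 48 h, and 9.84 and 9.87 in the control. The control arrays lie just above 0 h and the 48 h arrays far above them. At 48 h it exceeded the control by 2.15-fold (log2 1.11, SE 0.11, limma adjusted p = 8.83e-06). On a wider fibroblast list of 11 genes, which holds 0 members, 10 probes of 6 genes were tested. At 48 h, 7 were higher and 1 lower than at 12 h, where 22.3% and 23.6% of all tested probes were. In the control 2 were higher and 6 lower than at 12 h, where 23.3% and 25.3% were. Against the control 6 were higher and 0 lower at 48 h, where 8.85% and 9.05% were. The part of other cell types in the Lgals1 difference was not tested.

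Histone genes in the set were H1f2 and H1f10, which encode linker histones, and H2bc4, which encodes a core histone. H1f2 read 8.29 and 8.26 at 0 h, 7.76 and 7.83 at 3 h, 7.93 and 7.81 at 6 h, 8.11 and 8.09 at 9 h and 8.12 and 8.11 at 12 h. It read 8.33 and 8.26 at 24 h, 8.64 and 8.59 at 48 h, and 7.66 and 7.74 in the control. It ended above its 12 h level at 48 h and below it in the control, and at 48 h exceeded the control by 1.89-fold (limma adjusted p = 3.04e-06). H2bc4 exceeded the control by 1.41-fold at 48 h (adjusted p = 0.00731), and H1f10 differed by 0.10.

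**Figure D5:**
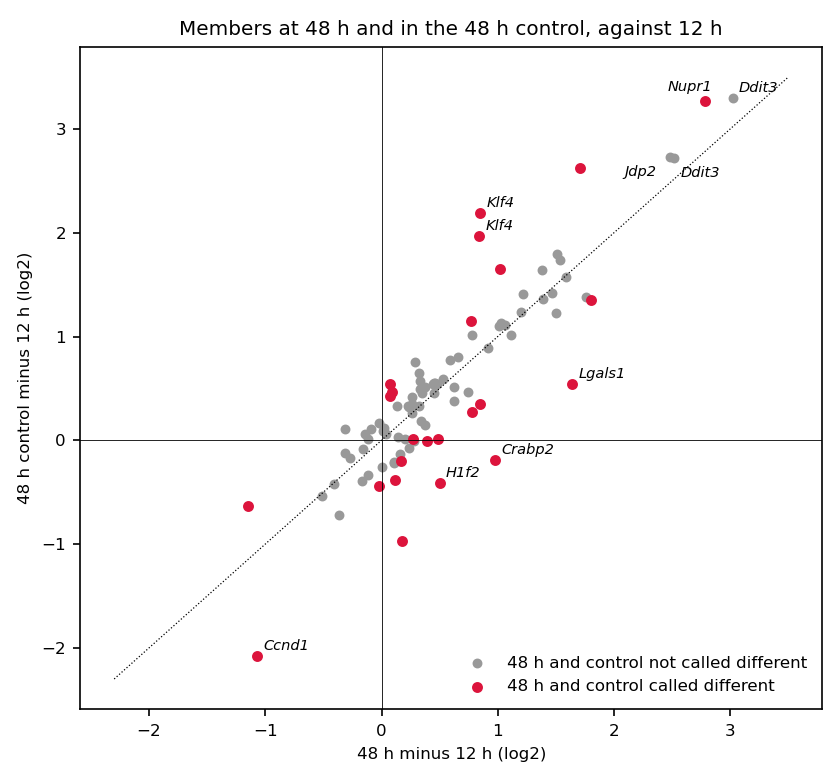
Log2 difference of each of the 93 members from 12 h at 48 h (horizontal axis) and in the 48 h control (vertical axis), each point a probe and the dotted line equality. Both axes use the same 12 h arrays, so nothing is read from their likeness; red points are the 24 members called different between 48 h and the control, with Klf4 above the line and Crabp2, Lgals1, H1f2 and Ccnd1 below it.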

How the data were processed

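Total RNA of 16 samples was read on Illumina bead arrays. The intensities were deposited by the authors as non-normalized values per the file headers, on a linear scale, with a detection p-value per probe and array, also deposited by the authors. BeadStudio 3.2, lumi and RMA appear in the submitters' processing notes without a stated step. A second table of the authors' deposited values is on a log2 scale and was used only as an alternative. All columns were matched to sample titles (0 unmatched). In limma 3.58.1 (R 4.3.3) the intensities were background-corrected from the detection p-values with an offset of 16, quantile normalized and taken to log2 (neqc), which shrinks the differences of dim probes. The filter kept 13974 probes, those whose detection p-value was under 0.05 on 2 or more arrays, and left out 11723. All 16 arrays entered a single linear model of the 8 groups (8 residual and 6.30 prior degrees of freedom), with moderated statistics and Benjamini-Hochberg adjustment over all tested probes. Only contrasts without the 0, 6 and 24 h arrays were tested, and the procedure was tested on simulated data. The number of arrays limits the precision: the median SE of a difference was 0.12.

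Genes were named from the platform annotation (23978 probes with 1 symbol, 0 with several, 1719 with none), with 23962 symbols updated through the gene ID. Promoter windows are RefSeq's of GRCm38.p6. The members and gene lists were chosen with earlier results of these data known. The rule for named genes took the 10 deepest falls with a symbol, the 6 highest and 6 lowest differences between 48 h and the control, and members on the gene lists. Jdp2, Slc6a9, Aldh18a1, Cdkn2a, Insm1, Mef2b, Rhbdd1, Car4, Vat1, the histone genes other than H1f2, the further probes and the list genes outside the set were named after their values were seen. Of 19 gene lists, 12 held 0 members. Correlations of same-numbered arrays between groups, in their deviations from group means, ran from -0.07 to 0.29, with 16 of 28 group pairs over 0.1, so the numbers were not taken as pairs. Alternatives covered scaling, background, offset, filter, threshold, moderation and each array left out.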

Additional observations from a re-analysis of the deposited data

Results flagged for a closer look

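H1f2 went opposite ways in the groups harvested at 48 h. Its log2 intensity was 0.50 higher at 48 h than at 12 h (limma adjusted p = 0.000187) and fell by 0.41 below 12 h in the 48 h control (adjusted p = 0.000852), a difference of 0.92 between them (adjusted p = 3.04e-06). Both arrays of 48 h lie above and both of the control lie below all arrays of 9 and 12 h. The difference kept its sign and its call in all settings tried and with any 1 array left out. Among the 93 members it was the only probe called with opposite signs in these comparisons.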

How the results depend on the processing

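The size of the set depends on the processing, while the number of members called between 12 h and either late group stayed within 1.5 times in every setting run. The rule found 20 probes without background correction, 43 with an offset of 50 and 331 on the deposited values, which hold all 93. It found 231 with steps of 0.3, 37 with steps of 0.5 and 40 when the steps of 0.4 had to hold in each replicate number. Background, offset and threshold act directly on the size of differences. Leaving out 1 array gave 91 to 175, the highest without 6 h replicate 2. For 9 h against 3 h, 7 members were called when only the groups compared were fitted and 5 at an adjusted p under 0.01, and for 12 h against 3 h 8 and 10. For 12 h against 9 h, 1 was called without background correction and 1 with an intensity trend and robust moderation. Leaving out 1 array gave 4 to 14 calls for 9 h against 3 h, 0 to 0 for 12 h against 9 h, 9 to 16 for 12 h against 3 h, 46 to 54 for 48 h against 12 h, 53 to 63 for the control against 12 h and 15 to 26 for 48 h against the control. Of 3219 alternative values of 111 named calls, 0 changed sign and 211 lost their call, 130 of them on leaving out 1 array. With the replicate number as a block, 17, 0, 19, 56, 62 and 26 members were called in the 6 comparisons, which changed no count by over 1.5 times; 14 of 16 arrays correlated best with their own number, which is seen in the data only and stated by no label. A block for the slide was not run, since no slide is named in the files. Dim probes limit 5 members, which were not detected on either array of at least 1 group.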

Other observations

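Members with mitochondrial and lysosomal products were not described above. The mitochondrial group holds 6 genes: Ndufa3, Ndufb6 and Ndufaf3, which encode a pair of subunits and an assembly factor of respiratory complex I, the import subunit gene Tomm7, the carrier gene Slc25a42 and Mmab, an enzyme of cobalamin metabolism. They were 0.41 to 0.64 lower at 6 h than at 0 h. Slc25a42 was detected on neither array of 6 h nor of 9 h. With the dim side set to the lowest detected signal, its 0 h level was at least 1.17-fold above 6 h. From 12 to 48 h, Ndufa3 rose (0.35, limma adjusted p = 0.0184) and Ndufaf3 fell by 0.41 (adjusted p = 0.00805), and the other 4 were not called. Tomm7 read 11.35 and 11.01 at 0 h, 10.80 and 10.71 at 6 h, and 11.17 and 11.28 at 24 h. Further probes of Mmab and Ndufb6 did not fall by 0.4 at 6 h: those of Mmab differed from 0 h by -0.22 to 0.20 and that of Ndufb6 by -0.06.

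The lysosome and autophagy group holds 3 genes. Gabarap, whose product is joined to autophagosome membranes, read 9.91 and 9.67 at 0 h, 9.37 and 9.35 at 6 h, 10.14 and 10.30 at 24 h, 10.58 and 10.46 at 48 h, and 9.75 and 10.26 in the control. It rose 1.72-fold from 12 to 48 h (limma adjusted p = 0.000411). Mcoln1, a lysosomal cation channel, rose 1.80-fold over the same interval (adjusted p = 0.000411), and Rraga, a Rag GTPase of amino acid sensing, was dim at 6 h and not called. Against the control, Gabarap was 0.51 higher at 48 h (adjusted p = 0.0215), a call lost without control replicate 1 (0.26, adjusted p = 0.232) or without either 48 h array (adjusted p = 0.138 and 0.057).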
